A study of Arabidopsis thaliana with 14 samples.

Results

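The linker histone genes of Arabidopsis thaliana measured on these arrays were H1.1 (AT1G06760_at), H1.2 (AT2G30620_at) and HIS1-3 (AT2G18050_at). They were chosen by locus from the H1 family, with earlier results of these same arrays in view. All 3 loci had a value row, among 21195 loci with values. HIS1-3 was high in arrested inflorescences and meristems and lower on every other array of the same tissue, whereas H1.1 and H1.2 were lowest in arrested tissue by a small margin. The choice rested on values from all 14 arrays, so the levels of the 3 genes are given as a description with their errors, and no p-value is attached to them.

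Linker histone H1 binds the nucleosome where DNA enters and leaves it, outside the core of H2A, H2B, H3 and H4, and helps to compact chromatin. In Arabidopsis, H1.1 and H1.2 are the main variants, found in most cells and enriched in heterochromatin, where they limit the access of DNA methyltransferases. HIS1-3 is a shorter, divergent variant, known for its induction by drought and abscisic acid and for its presence in guard cells.

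Expression was measured on 14 Affymetrix arrays. Of these, 10 held RNA of whole inflorescences and 4 held amplified RNA of shoot apices cut by laser, called meristems here. The fertile plants carried the label ms1-1 co-segregant, and the sterile plants were ms1-1 homozygous, which is male sterile and sets no seed. The growth protocol names the accession Landsberg erecta and male sterile 1, and the ages of the plants are not given in the sources used here. Inflorescences came from fertile plants that had arrested (2 arrays), from fertile growing plants (1 array), from sterile growing plants (1 array), and from arrested fertile plants whose fruits had been taken off 6 h, 24 h or 48 h earlier (2 arrays for each time). The growth protocol tells of a few fruits left in place and the design text of none. Meristems came from arrested, fertile growing and sterile growing plants and from arrested plants 48 h after fruit removal (1 array each). Arrested plants are those whose apices have stopped making flowers while the fruits fill. Each array held tissue pooled from several plants, and whether replicate arrays came from separate sets of plants is not stated, so the spread between them may be technical in part. The comparisons ask how the transcript levels of arrested apices differ from those of growing ones and how soon they shift once fruits are taken away.

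Values are the deposited ones, read as log2, so a difference of 1 is a 2-fold difference. Median values of the arrays lay between 7.27 and 7.49. Replicate arrays correlated at r = 0.947 for arrested, 0.991 at 6 h, 0.982 at 24 h and 0.975 at 48 h, so the arrested pair was the least alike. Titles of inflorescence arrays hold a code, r or g, of unstated meaning. The arrested pair had 1 array of each code, both growing arrays were r, and all 6 arrays after fruit removal were g. A comparison of growing arrays with arrays after fruit removal therefore cannot be told apart from this code. The tissue labels were checked by marker lists. The 5 shoot meristem markers summed to a linear level of 1270 to 2410 in inflorescences and 4270 to 5690 in meristems, and the 6 flower markers to 5350 to 11900 and 1220 to 1480. STM and CLV3 were higher on every meristem array than on any inflorescence array, and all flower markers except LFY were lower. LFY went the other way, at 8.68 to 9.45 in meristems. KNAT1, WUS and CLV1 overlapped between the tissues. CLV1 read 8.55 in the arrested meristem and 9.58 and 9.91 in arrested inflorescences. The check thus holds for the sums and not for every marker.

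HIS1-3 read 11.63 and 12.11 in the 2 arrested inflorescence arrays. It read 8.03 in the fertile growing array and 5.18 in the sterile growing array. At 6 h after fruit removal it read 9.06 and 8.79. The arrested arrays were thus the highest of the 10 by more than 2 log2 units, and the sterile growing array was the lowest. At 24 h it read 8.15 and 7.75, and at 48 h 6.98 and 7.76. Values at 24 h lay below both arrays at 6 h, and the 48 h arrays overlapped those at 24 h. The group means were 11.87 ± 0.34 (SD, n = 2) in arrested, 8.93 ± 0.19 at 6 h, 7.95 ± 0.28 at 24 h and 7.37 ± 0.55 at 48 h.

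Ordered by level, the inflorescence groups for HIS1-3 ran from arrested through 6 h, fertile growing, 24 h and 48 h to sterile growing. The fertile growing value of 8.03 fell between the 2 arrays at 24 h, and 24 h and 48 h were not separated by their spread. The gap between arrested and 6 h, and that between 48 h and sterile growing, exceeded the spread of the replicate pairs. The lowest value, 5.18, lay above 10.8% of the values on its array. No detection call was used here, so whether the transcript was above background there is not shown.

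**Figure D1:**
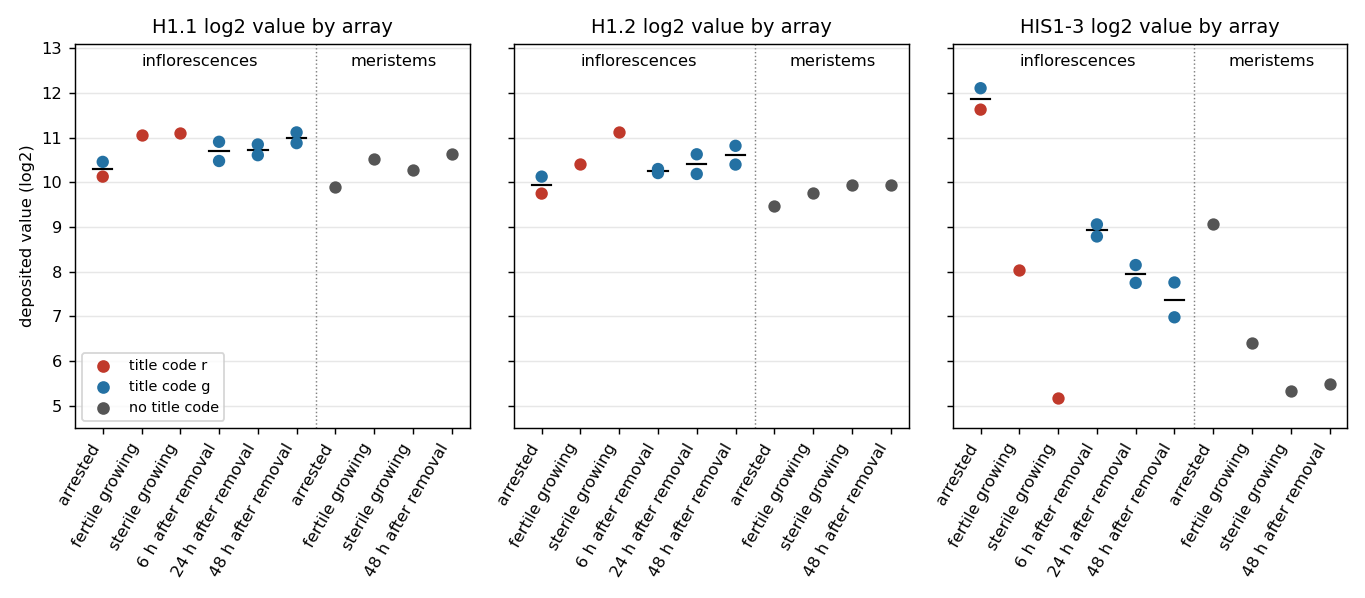
Deposited log2 value (vertical axis) of H1.1, H1.2 and HIS1-3 on each of the 14 arrays, with inflorescences left and meristems right of the dotted line. Points are arrays coloured by title code, and bars are means of groups with 2 arrays. HIS1-3 reads 11.63 and 12.11 in arrested inflorescences and 8.15 or less wherever the group is neither arrested nor 6 h after fruit removal.

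In the fit over the 10 inflorescence arrays, HIS1-3 was lower than in arrested tissue by 38.45-fold in growing inflorescences, a log2 difference of -5.26 ± 0.31 (SE). Of all loci, 21 had a lower difference in that comparison. The growing mean joins 1 fertile array (8.03) and 1 sterile array (5.18). The error comes from the replicate pairs of other groups, so it does not measure the gap between these 2 arrays. The difference from arrested was -2.94 ± 0.31 at 6 h, a 7.7-fold lower level, with 36 loci lower still. It was -3.92 ± 0.31 at 24 h (15.14-fold) and -4.50 ± 0.31 at 48 h (22.63-fold), with 8 and 6 loci lower still. These 4 comparisons share the same arrested arrays, so they are given side by side and not as separate evidence. Within the g arrays alone, HIS1-3 was below its arrested partner by 8.28- and 9.99-fold at 6 h, 15.56- and 20.53-fold at 24 h, and 35.02- and 20.39-fold at 48 h. Within the r arrays alone, it was 12.13-fold lower in the fertile and, as read, 87.43-fold lower in the sterile growing array. The sterile value is not shown to be above background, so the larger fold is uncertain.

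The arrays of the compared groups did not overlap for HIS1-3 in any of the 4 comparisons with arrested. Non-overlap toward lower values was common among all loci: 23.0% in growing, 36.2% at 6 h, 26.8% at 24 h and 30.2% at 48 h. Separation of the arrays was thus shared with many loci, and differences of this size with few. Over the 10 inflorescence arrays its values spanned 6.93 log2 units, or 121.9-fold, against a median span of 1.12 for a locus, and 33 loci spanned more.

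**Figure D2:**
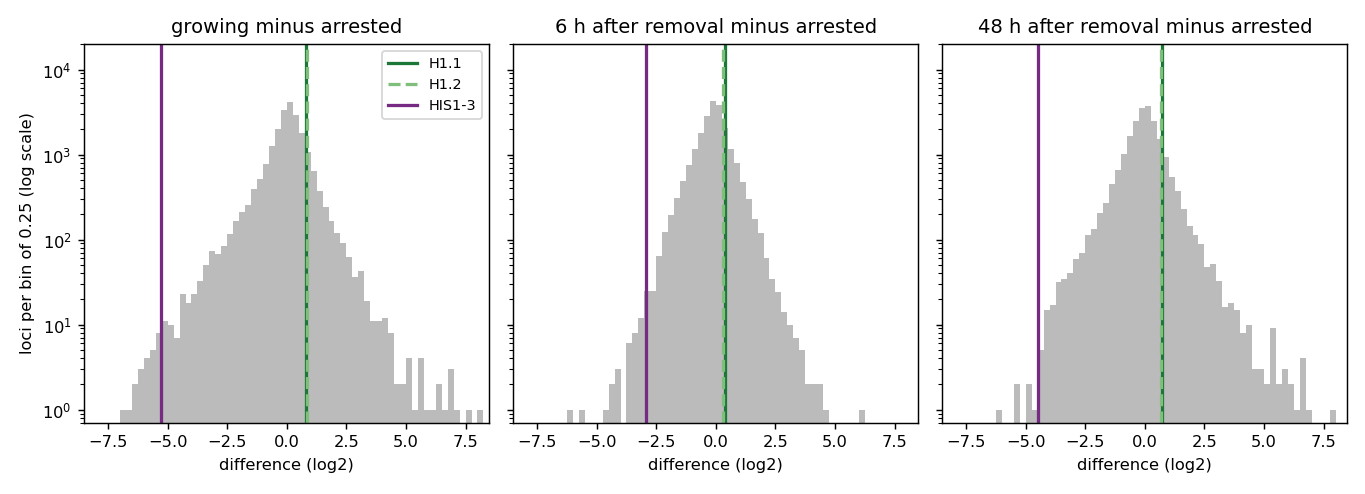
Number of loci (vertical axis, log scale) by log2 difference from arrested inflorescences in bins of 0.25, for growing, 6 h and 48 h arrays. Coloured lines mark the linker histone genes. HIS1-3 lies at -5.26, -2.94 and -4.50 in the sparse left tail, and H1.1 and H1.2 lie at 0.32 to 0.83, within the bulk.

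H1.1 showed the opposite direction on a far smaller scale. It read 10.13 and 10.46 in arrested inflorescences, 11.06 in the fertile and 11.11 in the sterile growing array. After fruit removal it read 10.91 and 10.48 at 6 h, 10.61 and 10.85 at 24 h, and 10.88 and 11.12 at 48 h. The 2 arrested arrays were the lowest of the 10, but the higher of them lay only 0.02 below the lower array at 6 h. Group means were 10.30 ± 0.23 (SD, n = 2) in arrested, 10.70 ± 0.30 at 6 h, 10.73 ± 0.17 at 24 h and 11 ± 0.17 at 48 h. Neighbouring times were closer than their spread, except that both 48 h arrays lay above both 24 h arrays.

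H1.2, the paralogue of H1.1, read 9.75 and 10.13 in arrested inflorescences. It read 10.41 in the fertile and 11.13 in the sterile growing array. It read 10.30 and 10.21 at 6 h, 10.19 and 10.63 at 24 h, and 10.40 and 10.82 at 48 h. The arrested arrays were again the lowest of the 10, and the sterile growing array was the highest. Group means were 9.94 ± 0.27 (SD, n = 2) in arrested, 10.26 ± 0.06 at 6 h, 10.41 ± 0.31 at 24 h and 10.61 ± 0.30 at 48 h, with overlapping arrays between neighbouring times. Probe sequences were not used here, so signal shared between probes of H1.1 and H1.2 was not checked.

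Relative to arrested, H1.1 was higher by 0.79 ± 0.22 log2 units (SE) in growing inflorescences (1.73-fold) and H1.2 by 0.83 ± 0.24 (1.78-fold). At 6 h the differences were 0.40 ± 0.22 for H1.1 and 0.32 ± 0.24 for H1.2. At 24 h they were 0.44 ± 0.22 and 0.47 ± 0.24, and at 48 h 0.70 ± 0.22 and 0.67 ± 0.24. At 6 h both genes thus lay within 2 standard errors of no difference, and at 24 h both lay at about 2 standard errors. Arrays did not overlap in any of these comparisons, which held toward higher values for 26.9% of all loci in growing, 24.6% at 6 h, 30.1% at 24 h and 27.6% at 48 h. H1.1 and H1.2 were thus among a common class of loci, and between 2502 and 4860 loci had a higher difference in each of these comparisons.

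The sizes for H1.1 and H1.2 moved with the processing. After quantile normalization the difference at 6 h was 0.80 for H1.1 and 0.66 for H1.2, and at 24 h it was 0.78 and 0.79. With the title code as a block it was 0.24 and 0.12 at 6 h and 0.27 and 0.28 at 24 h. Against the arrested g array alone, the 2 arrays at 6 h differed by 0.45 and 0.02 for H1.1 and by 0.17 and 0.08 for H1.2. For HIS1-3 the difference at 6 h was -2.60 after quantile normalization, -3.18 with the block, and -3.05 and -3.32 for the 2 arrays against the arrested g array alone.

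**Figure D3:**
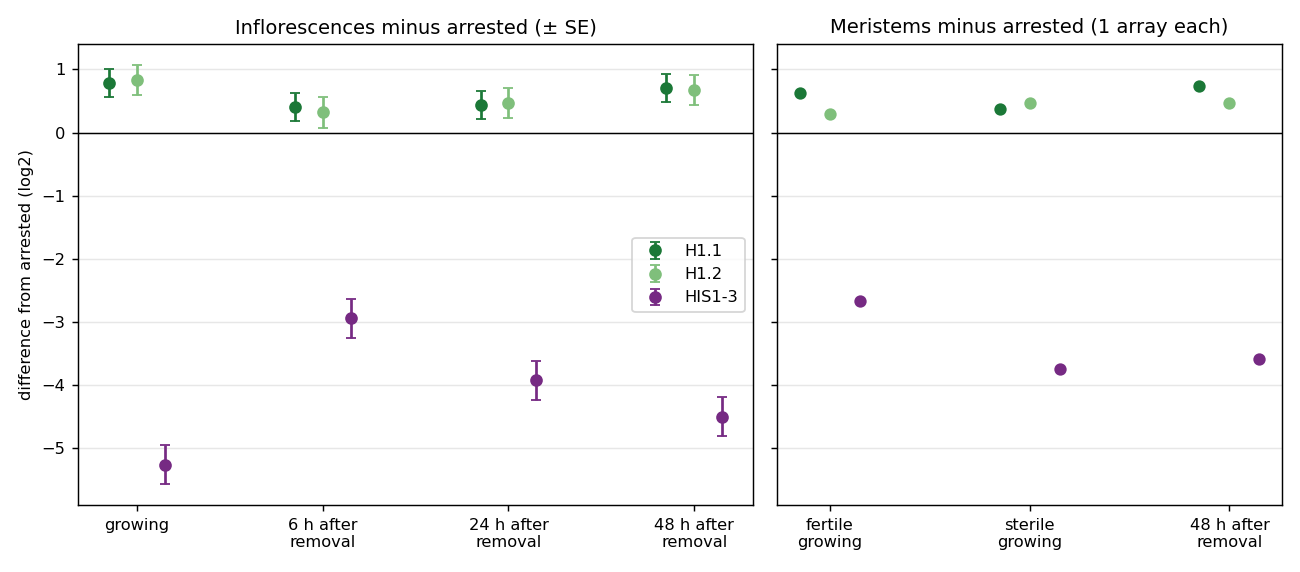
Log2 difference from arrested tissue of the same kind (vertical axis) for H1.1, H1.2 and HIS1-3. Left, inflorescences with standard errors from the fit, and right, meristems with 1 array per group and no error. HIS1-3 lies between -5.26 and -2.66 throughout, and H1.1 and H1.2 lie between 0.29 and 0.83.

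Sterile and fertile growing inflorescences were compared with 1 array each, so the error comes from the replicate pairs of other groups. As read, HIS1-3 was 7.21-fold lower in the sterile array, a log2 difference of -2.85 ± 0.43 (SE), and 119 loci had a lower difference. Its level in the sterile array is not shown to be above background. H1.2 was higher in the sterile array by 0.72 ± 0.34. H1.1 differed by 0.05 ± 0.32, and by -0.08 when arrays were centred on their medians, so it has no settled direction here. The median locus differed by 0.25 in this comparison, and by 0.06 after quantile normalization, so small positive differences are not set apart from it.

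Between successive times after fruit removal, HIS1-3 was lower at 24 h than at 6 h by -0.98 ± 0.31 log2 units (SE). Its arrays did not overlap in this step, which held toward lower values for 17.1% of all loci. From 24 h to 48 h HIS1-3 differed by -0.58 ± 0.31, with overlapping arrays. H1.1 differed by 0.04 ± 0.22 in the first step and by 0.27 ± 0.22 in the second, where its arrays did not overlap, as for 12.0% of loci toward higher values. H1.2 differed by 0.16 ± 0.24 and 0.20 ± 0.24, with overlapping arrays. Most of the distance of HIS1-3 from arrested tissue was thus present in the first 6 h samples.

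At 48 h after fruit removal the 3 genes overlapped with growing inflorescences. The log2 difference from growing was -0.08 ± 0.22 (SE) for H1.1, -0.16 ± 0.24 for H1.2 and 0.76 ± 0.31 for HIS1-3. The 2 growing arrays themselves differed by -2.85 for HIS1-3, sterile minus fertile, and the 48 h values of 6.98 and 7.76 lay between them. With the title code as a block the differences were -0.42, -0.54 and 0.28, since each side was then read against the arrested array of its own code.

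In the meristems, HIS1-3 read 9.07 in the arrested array, 6.41 in fertile growing, 5.33 in sterile growing and 5.48 at 48 h after fruit removal. The arrested array was thus again the highest. The sterile growing and 48 h values lay above only 5.9% and 7.8% of the values on their arrays, so they are not shown to be above background and their order is not settled. As read, the arrested value exceeded the others by 6.32-, 13.36- and 12.04-fold, in that order, with 50, 16 and 9 loci showing a lower difference. Each group was 1 array, so these differences have no replicate check. A level lower by at least 1 log2 unit was seen for 5.17% of loci in fertile growing, 6.12% in sterile growing and 5.66% at 48 h, and HIS1-3 was past it each time. Over the 4 meristem arrays HIS1-3 spanned 3.74 log2 units against a median of 0.59, and 30 loci spanned more.

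H1.1 in the meristems read 9.89 in the arrested array, 10.52 in fertile growing, 10.27 in sterile growing and 10.63 at 48 h. H1.2 read 9.48, 9.77, 9.95 and 9.95 in the same order. The arrested array was the lowest for both genes. The log2 differences from it were 0.63, 0.38 and 0.74 for H1.1 and 0.29, 0.47 and 0.47 for H1.2. None reached 1 log2 unit, which 5.46% of loci did upward in fertile growing, 7.1% in sterile growing and 6.53% at 48 h.

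Meristem RNA was amplified and inflorescence RNA was not, so levels across the tissues mix tissue with preparation. As read, the meristem minus inflorescence difference of HIS1-3 was -2.80 log2 units in arrested plants, -1.62 in fertile growing plants, -1.89 at 48 h and 0.15 in sterile growing plants. For H1.1 it lay between -0.84 and -0.37 and for H1.2 between -1.18 and -0.46 over the 4 states. In the bulk samples of either tissue, fewer cells of a type and less RNA per cell cannot be told apart.

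Among the cell type lists, the pollen markers resembled HIS1-3 in part in the inflorescences. The pollen markers AGP6 and AGP11, arabinogalactan proteins of pollen, were 2 of 6 listed genes with usable values. They summed to a linear level of 5810 and 8150 in the arrested arrays. They summed to 557 in the fertile and 67.5 in the sterile growing array. After fruit removal the sums were 1280 and 1630 at 6 h, 2100 and 1780 at 24 h, and 1070 and 305 at 48 h. From 6 h to 24 h they thus did not fall, whereas HIS1-3 did. Pollen markers were thus highest in the arrested arrays and lowest in the sterile growing array, as HIS1-3 was. AGP6 fell by 5.12 ± 0.55 log2 units (limma adjusted p = 0.00068) and AGP11 by 5.40 ± 0.41 (limma adjusted p = 0.00016) in growing against arrested inflorescences, where 25.9% of loci were called. The part of pollen in the inflorescence result was not tested. In the meristems the pollen markers summed to 133 in the arrested array and to 158 to 181 in the others, where HIS1-3 was 2.66 to 3.74 log2 units below its arrested level.

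The 6 guard cell markers summed to 267 to 386 in inflorescences, and none lay above the median of its array on any of these 10 arrays. In the meristems they summed to 343 to 653, with the arrested array at 653. That sum came mostly from GORK, which read 8.52 in the arrested meristem and 6.54 to 7.47 in the others. HT1 and KAT1 were also highest there, by smaller margins. FAMA and SLAC1 lay within the range of the other meristems, and MYB60 was lowest in the arrested one, at 4.76. The mean log2 level of the list was highest in the arrested meristem, at 6.19 against 5.66 to 5.90 in the others, but not every marker was. The part of guard cells in the meristem result was not tested. The 7 tapetum markers, genes of the pollen-feeding cell layer of the anther, summed to 220 to 305 in arrested, 6 h and 24 h inflorescences and to 4810 to 16300 in growing and 48 h inflorescences. The tapetum level thus shifted between 24 h and 48 h, whereas HIS1-3 was already 7.7-fold lower at 6 h. No marker of these lists had a value of 0 on any array.

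Other proteins carry the same globular domain as linker histones (GH1), and 6 of them were measured. They include the AT-hook protein HMGA, the HON proteins and the telomere-binding TRB proteins. In growing against arrested inflorescences 25.9% of all loci were called, 2957 as higher and 2526 as lower of 21195. There 1 of the 6 rose and none fell, with a median log2 difference of 0.23 against 0.06 for all loci. HMGA was the gene that rose, by 1.08 ± 0.20 (limma adjusted p = 0.0067). TRB3 differed by 0.54 ± 0.20 (limma adjusted p = 0.08) and HON4 by 0.14 ± 0.25 (limma adjusted p = 0.74). At 6 h, where 21.8% of loci were called, HMGA rose by 0.80 ± 0.20 (limma adjusted p = 0.026) and the median of the 6 was -0.22 against -0.08. HON4 went the other way, by -0.84 ± 0.25 (limma adjusted p = 0.05, not called). It was called lower at 6 h with median centring (limma adjusted p = 0.042) and with the filter on low values (limma adjusted p = 0.037). Leaving out 1 array at a time gave HON4 -1.13 to -0.55 at 6 h. TRB2 differed by -0.52 ± 0.17 at 6 h (limma adjusted p = 0.061). With the filter on low values TRB2 was called lower (limma adjusted p = 0.035). At 24 h, where 22.0% of loci were called, HMGA rose and HON4 fell, by 0.84 ± 0.25 (limma adjusted p = 0.049). At 48 h HMGA alone was called, as a rise, where 26.4% of loci were called. With the compared groups alone the call of HMGA in growing was lost (limma adjusted p = 0.12). The call of HMGA at 6 h was lost with array weights (limma adjusted p = 0.058), with the compared groups alone, without either 6 h array and without the arrested g array. Without the arrested r array 3 of the 6 rose in growing inflorescences.

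The core histones that are made mainly during DNA replication moved together in the direction of H1.1 and H1.2. In growing against arrested inflorescences 25.9% of all loci were called, 2957 as higher and 2526 as lower of 21195. Of the 15 measured histones of this list, 14 rose there, with a median log2 difference of 2.07. The H3 gene HTR2 rose by 3.22 ± 0.23 (limma adjusted p = 0.00014), HTR1 by 3.02 ± 0.20 (limma adjusted p = 0.00011) and the H2B gene HTB2 by 2.42 ± 0.21 (limma adjusted p = 0.00026). At 6 h 11 of 15 rose (median 1.64), at 24 h 12 of 15 (median 2.02) and at 48 h 13 of 15 (median 2.10), and none fell. Called loci made up 21.8% of all loci at 6 h, 22.0% at 24 h and 26.4% at 48 h. The median of all loci was -0.08 at 6 h, 0.08 at 24 h and -0.02 at 48 h. The differences of H1.1 and H1.2, at 0.32 to 0.83, were below these medians in all 4 comparisons.

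Variant core histones, which are placed outside replication or at special sites, were mixed. Against arrested, called loci made up 25.9% of all loci in growing, 21.8% at 6 h, 22.0% at 24 h and 26.4% at 48 h. Of all 21195 loci, 2957 rose and 2526 fell in growing. In growing against arrested inflorescences 7 of the 12 variant histones rose and 1 fell, with a median of 1.16. The H2A.W gene HTA6, of heterochromatin, rose by 3.16 ± 0.25 (limma adjusted p = 0.0002), and the centromeric H3 gene HTR12 by 2.55 ± 0.31 (limma adjusted p = 0.0011). At 6 h 5 rose and 3 fell (median 0.28), among them the H2A.Z gene HTA9, which fell by 0.90 ± 0.17 (limma adjusted p = 0.0095). At 24 h 6 rose and 4 fell, and at 48 h 7 rose and 4 fell. The H3.3 genes HTR4, HTR5 and HTR8 were among the falls at both of these times, and HTR5 was the fall in growing. The number of falls in this list moved with single arrays and settings. In growing it was 2 after quantile normalization and 3 with median centring or the filter on low values. None passed after quantile normalization at 6 h and 24 h, without either 6 h array at 6 h, without either 24 h array at 24 h, or without the first 48 h array at 48 h. With the compared groups alone the falls were 1 at 6 h and 0 at 24 h, at 48 h and in growing inflorescences. The fall in growing was also lost with array weights and when any 1 of the 6 h or 24 h arrays was left out.

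Against arrested, called loci made up 25.9% of all loci in growing, 21.8% at 6 h, 22.0% at 24 h and 26.4% at 48 h. In growing 2957 of 21195 loci rose and 2526 fell. Of 11 genes of DNA methylation and heterochromatin, 7 rose and none fell in growing against arrested inflorescences (median 1.46). The rises include the DNA demethylase ROS1, at 1.52 ± 0.21 (limma adjusted p = 0.0018, and 0.068 with the compared groups alone). The CG methyltransferase MET1 rose by 2.22 ± 0.24 (limma adjusted p = 0.00063), the CHG methyltransferase CMT3 by 1.84 ± 0.18 (limma adjusted p = 0.00042) and VIM1, which helps MET1 to find hemimethylated DNA, by 2.35 ± 0.30 (limma adjusted p = 0.0014). At 6 h 5 rose and 2 fell, with a median of 0.62. Without the first 6 h array the 5 became 1, and without the second they became 2. The 2 falls were lost without either 6 h array and with the compared groups alone, and 1 was left with the title code as a block or array weights. At 24 h 6 rose (median 0.74) and at 48 h 7 rose (median 0.94), with none falling, but without the second array of the time the 6 became 3 and the 7 became 4. Of 11 genes of DNA replication, 10 rose in each of the 4 comparisons with arrested, with medians of 2.18, 1.72, 2.14 and 2.36. PCNA1, the sliding clamp of DNA polymerase, rose by 3.02 ± 0.22 in growing (limma adjusted p = 0.00014) and by 2.81 ± 0.22 at 6 h (limma adjusted p = 0.0017).

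Genes of drought and abscisic acid response, the setting in which HIS1-3 is best known, were mostly lower outside arrest, as HIS1-3 was. In growing against arrested inflorescences 25.9% of all loci were called, 2957 as higher and 2526 as lower of 21195. Of the 22 measured genes of this list, 12 fell and 1 rose there, with a median log2 difference of -1.26. RD29A, ERD10 and RD29B were also higher in growing, by 2.37, 1.14 and 0.04, but were not called. The gene that rose was COR15A, by 3.39 ± 0.94 (limma adjusted p = 0.034). The rise was lost with the title code as a block, which for this comparison equals leaving out the arrested g array. The number of rises also moved without the arrested r array. The homeobox gene HB-7 fell by 2.99 ± 0.39 (limma adjusted p = 0.0015), and ERD1, a chloroplast protease subunit induced by dehydration, fell by 2.03 ± 0.27 (limma adjusted p = 0.0016). At 6 h 9 fell (median -1.09), at 24 h 11 (median -1.54) and at 48 h 12 (median -1.57), and none rose. Called loci made up 21.8% of all loci at 6 h, 22.0% at 24 h and 26.4% at 48 h. At 6 h HB-7 fell by 2.70 ± 0.39 (limma adjusted p = 0.0043), and the dehydrin COR47 fell by 2.23 ± 0.39 (limma adjusted p = 0.0077). In growing inflorescences COR47 differed by -0.98 ± 0.39 (limma adjusted p = 0.1) and RAB18 by -0.61 ± 0.44 (limma adjusted p = 0.36). The difference of HIS1-3 was beyond the lowest member of the list in each of these comparisons, where the lowest members stood at -2.99, -2.70, -3.48 and -2.76. Without the second 6 h array the 9 falls at 6 h became 1, without either 24 h array the 11 became 5, and without the first 48 h array the 12 became 5. With array weights the falls were 5 at 6 h, 5 at 24 h and 7 at 48 h.

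The mean log2 level of the drought list was 9.54 and 9.31 in arrested inflorescences, 8.92 in the fertile and 8.02 in the sterile growing array, and 7.72 to 8.59 after fruit removal. In the meristems it was 8.83 in the arrested array and 7.17 to 7.58 in the others. The arrested arrays were thus highest in both tissues, as for HIS1-3. In sterile against fertile growing inflorescences, where 0.67% of loci were called, 1 of 22 fell. This gene, the dehydrin RAB18, fell by 4.68 ± 0.63 log2 units (limma adjusted p = 0.024) and was chosen after its value was seen. No gene of the list was called lower in this comparison without either 24 h array. In the steps from 6 h to 24 h and from 24 h to 48 h no member of this list was called, where 0.0% and 0.561% of loci were called by limma. At an unadjusted p under 0.05 the first step held 2329 loci, and with array weights 87 loci were called. Between 48 h and growing inflorescences 1.07% of loci were called and 0 of these 22.

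A list of low-sugar and bud dormancy genes differed more within the arrested pair than HIS1-3 did. Its mean was 8.63 in the arrested r array and 11.27 in the arrested g array, while HIS1-3 read 11.63 and 12.11 there. Against arrested, called loci made up 25.9% of all loci in growing, 21.8% at 6 h, 22.0% at 24 h and 26.4% at 48 h. In growing 2526 of 21195 loci fell. Of the 12 measured genes of this list, 4 fell in growing inflorescences (median -1.52). At each of 6 h, 24 h and 48 h 5 fell (medians -2.55, -2.27 and -3.22). More fell at these times with the title code as a block, which for them equals leaving out the arrested r array. In growing inflorescences more fell without the arrested r array. Some were called higher there with the title code as a block, which for growing equals leaving out the arrested g array. The homeobox genes HB21 and HB53, which act in axillary bud dormancy, fell by 2.84 ± 0.24 (limma adjusted p = 0.00024) and 2.52 ± 0.20 (limma adjusted p = 0.00021) in growing against arrested inflorescences. With HB40 and DIN2 they made up the 4 falls there. At 6 h, 24 h and 48 h the 5 falls were HB21, HB40, HB53 and the dormancy genes DRM1 and DRM2. Fitted on the compared groups alone, growing against arrested gave fewer calls in these lists. In that fit 0 GH1 domain proteins, 9 replication-linked core histones and 4 variant core histones rose. So did 3 genes of DNA methylation and heterochromatin, while 3 drought genes and 2 of the low-sugar and bud dormancy list fell. HB40 and DIN2 lost their calls in that fit.

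**Figure D4:**
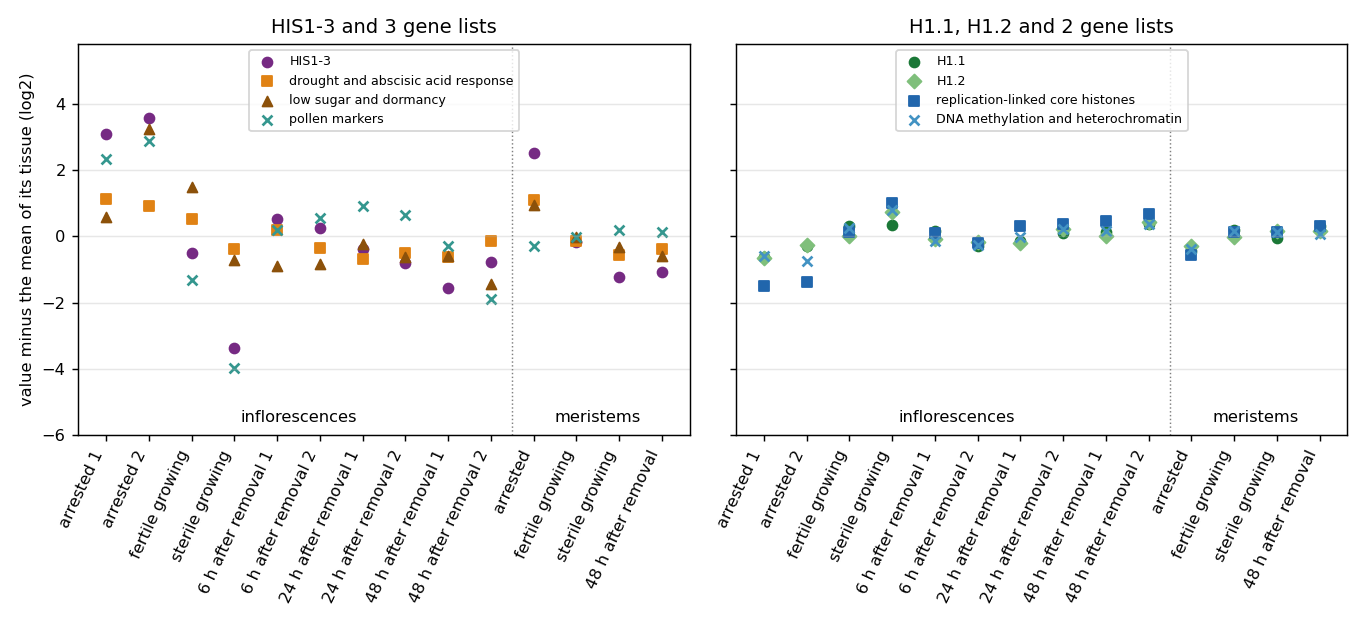
Log2 value minus the mean of its tissue (vertical axis) for each array, for HIS1-3 with the means of 3 gene lists (left) and for H1.1 and H1.2 with the means of 2 gene lists (right). Arrested arrays are high for HIS1-3 and the drought list in both tissues, whereas pollen markers are high in arrested inflorescences and, at a sum of 133, lowest in the arrested meristem.

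Across arrays H1.1 and H1.2 had like profiles, at r = 0.88 over the 14 arrays and 0.86 over the 10 inflorescence arrays. HIS1-3 ran against H1.1 at r = -0.36 and against H1.2 at r = -0.30 over the 14 arrays, and at r = -0.79 and -0.83 over the 10 inflorescence arrays. Against the mean of the replication-linked core histones over the 10 arrays, r was -0.96 for HIS1-3, 0.86 for H1.1 and 0.84 for H1.2. Over the 14 arrays these were -0.90, 0.64 and 0.56. Against the drought list over the 10 arrays, r was 0.79 for HIS1-3, and 0.33 without the 2 arrays farthest from the median of the list. Against the 2 pollen markers it was 0.88, and 0.70 when reduced in the same way. Over the 14 arrays HIS1-3 stood at 0.87 with the drought list and 0.81 with the pollen markers. Arrays share their groups and tissue, so these values describe 14 or 10 points that are not independent, and they carry no p-value.

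Among genes with a symbol and a standard deviation of at least 0.25 over the 14 arrays, those most like HIS1-3 by Pearson's r were RD21A, a dehydration-responsive cysteine protease (0.970), and COL5, a CONSTANS-like protein (0.969). Next came HA1, a plasma membrane proton pump (0.966), GAMMA-VPE, a vacuolar processing enzyme (0.952), and PEN2, a glucosidase of defence (0.943). Those most like H1.1 were FPS1, a farnesyl diphosphate synthase (0.927), the H2A gene HTA7 (0.894), RPL34, a ribosomal protein (0.891), the H2B gene HTB4 (0.889) and PG2, a polygalacturonase (0.880). Those most like H1.2 were MK, the mevalonate kinase (0.934), RPB5D, an RNA polymerase subunit (0.932), PKT4, a peroxisomal thiolase (0.921), F8H (0.921) and UXS6, a UDP-xylose synthase (0.915). The search covered 8586 or 8587 loci per gene. Over the 10 inflorescence arrays alone, 1 of the 5 for HIS1-3 stayed among its first 5, and 0 for H1.1 and for H1.2, so the order rests on the arrays taken.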

How the data were processed

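The authors deposited 1 value per locus and array in the series matrix, read here as log2 from the range of 0 to 14.13. How they were normalized is not stated in the labels or the file, and scanner files, detection calls, probe and gene sequences were not used here. Removing 58 control rows from 21253 left 21195 loci.

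The 10 inflorescence arrays were fitted with 1 mean for each of 6 groups in limma 3.58.1 under R 4.3.3 (lmFit, contrasts.fit, eBayes), which left 4 residual degrees of freedom for 8 comparisons. P-values were two-sided and adjusted by Benjamini-Hochberg over all loci, and a locus was called, and is said to have risen or fallen, at an adjusted p under 0.05. The growing groups had 1 array each and were assumed to vary like the rest. The meristems had 1 array per group and no test. The steps were tested on simulated data. The number of arrays limits the precision.

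The linker histone genes and all gene lists were chosen with earlier results of these data known. Of 135 list members, 115 were used, 5 had another name in the RefSeq gene table (assembly TAIR10.1) and 15 had no value row here. The names H1.1 and H1.2 are those in general use for their loci. Some list members outside the naming rule below were named after their values were seen. Named genes were the 3 linker histone genes, up to 4 members per list with the lowest p in growing and in 6 h against arrested, markers, and for each linker histone gene the 5 most alike by Pearson's r over 14 arrays. Alternatives were quantile normalization, median centring, the title code as a block, array weights, a filter on low values, the compared groups alone and leaving out each replicate array. Only the arrested pair holds both codes. In comparisons with arrested, the block thus uses only the arrested array of the same code and repeats leaving out the other.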

Additional observations from a re-analysis of the deposited data

Results flagged for a closer look

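The difference of H1.1 between sterile and fertile growing plants had opposite signs in the 2 tissues as deposited, but not after median centring. The sterile minus fertile difference was -0.25 log2 units in the meristems and 0.05 in the inflorescences, with 1 array on each side in both. After centring on array medians the inflorescence value was -0.08, so an opposite direction is not established. The difference between the tissues was not tested. The inflorescence value lies within the spread between replicate inflorescence arrays of H1.1, whose standard deviations were 0.17 to 0.30. The meristems had no replicate arrays, so their value has no such measure.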

How the results depend on the processing

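No paired analysis was possible because the numbers in the titles are unique to each array and the groups compared share no replicate number.

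HIS1-3 kept its lower value against arrested tissue under every alternative run, and H1.1 and H1.2 their higher ones. After quantile normalization H1.1 differed by 0.80 at 6 h, 0.78 at 24 h and 0.96 at 48 h, and H1.2 by 0.66, 0.79 and 0.93. With the title code as a block, 48 h against growing gave -0.42 for H1.1, -0.54 for H1.2 and 0.28 for HIS1-3. Leaving out 1 array at a time gave HIS1-3 at 48 h a range of -4.89 to -4.11.

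Counts of called loci moved more. Fitting the compared groups alone gave 1112 loci for growing, 2438 at 6 h, 2321 at 24 h and 2723 at 48 h against arrested, and 0 for 48 h against growing, with fewer arrays behind each spread. Sterile against fertile could not be fitted that way. Array weights gave 2416 at 24 h, 3502 at 48 h, 1424 for sterile against fertile, 87 for 24 h against 6 h and 888 for 48 h against growing. The title code as a block gave 858 for sterile against fertile, 193 for 48 h against 24 h and 382 for 48 h against growing. Quantile normalization gave 356 for 48 h against growing, and at 6 h it raised the higher share of calls from 39.9% to 54.3%. For these shifts the cause was not tested.

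Leaving out 1 array at a time gave 4008 to 7000 calls for growing, 956 to 5787 at 6 h, 1786 to 5720 at 24 h and 3142 to 6555 at 48 h against arrested. It gave 42 to 858 for sterile against fertile, 0 for 24 h against 6 h, 46 to 193 for 48 h against 24 h and 23 to 1237 for 48 h against growing. TRB1 and HON4, not called in growing against arrested, turned to -0.02 and -0.15 with the title code as a block. For this comparison the block equals leaving out the arrested g array. HON4 stood at 0.43 without the arrested r array. The share of higher calls in sterile against fertile was 23.2%, 54.3% with the code as a block and 62.9% with array weights.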
